A study of Mus musculus with 10 samples.

Results

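The genes that build cholesterol and fatty acids were followed across 10 arrays of RNA from sorted mouse cortical cells. The list names 34 genes, and a gene was measured where the platform annotation pairs a probe set with its symbol alone; where there were several such probe sets, as for Scap, the brightest over all arrays was taken. That held for 31 of the 34, out of 22180 genes with such a probe set, and all 31 lay above the filter on dim probe sets that left 17712 genes for testing. Idi1 and Scd2 share their probe set with a further symbol, and they and Acat2 were not analysed here. Each array carries RNA of cells taken from the cortex of mice aged 8 weeks and sorted by FACS as astrocytes on an EGFP reporter, followed by amplification. One group holds 5 wild-type arrays, called control, and the other holds 5 arrays with the genotype FMR1_KO, called KO-labelled below. Both groups carry the reporter; what drives it, the strain, the sex and any pooling of animals are not stated in the labels. The replicates are called biological in the titles, with no word on separate animals, and every p-value rests on the spread from sample to sample, which may be technical. Levels are log2 signals of a probe set, so 1 unit is a doubling, and they are compared between arrays for a gene and never between genes.

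Cholesterol is made from acetyl-CoA through mevalonate and farnesyl diphosphate to squalene, which is closed to lanosterol and trimmed in many steps to cholesterol. Most of these enzymes, and those of fatty acid synthesis, are switched on by SREBP transcription factors, which SCAP carries out of the endoplasmic reticulum when sterols are scarce and which INSIG proteins hold back when sterols are plentiful. The brain makes its own cholesterol because plasma lipoproteins do not cross the blood-brain barrier, and astrocytes are known to pass cholesterol to neurons in ApoE particles.

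The shared control of these genes makes their promoters worth seeing. Of the 31 measured genes 25 had an entry among RefSeq promoter windows (build GRCm38.p6, 250 bases before to 50 after a start, 33 windows for these genes). CCAAT, the box bound by NF-Y, was in 22 of the 33 windows on either strand (66.7%), against 37.4% of all 32851 windows. GGGCGG, the Sp1 box, was in 24 (72.7%, against 35.7%) and the E-box CACGTG in 7 (21.2%, against 7.15%). The sterol regulatory element core TCACNCCAC was in 1 window, that of Hmgcs1 (3.03%, against 1.24%). These are matches of letters and not sites, and motifs may overlap, as 2 CCAAT matches on opposite strands do in Fasn. The 180 bases before the start are shown for 4 genes whose level followed the Cx3cr1 signal described below (Hmgcs1, Msmo1, Cyp51 and Fasn) and for 2 that did not pass that test (Mvk and Ebp), with matches to the 4 motifs in capitals, 5′ to 3′.
Hmgcs1, chr13:119690171-119690350, plus strand: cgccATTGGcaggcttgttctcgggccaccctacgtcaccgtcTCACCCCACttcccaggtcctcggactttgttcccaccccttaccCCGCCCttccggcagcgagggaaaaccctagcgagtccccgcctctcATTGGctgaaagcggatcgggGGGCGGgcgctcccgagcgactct
Msmo1, chr8:64733579-64733758, minus strand: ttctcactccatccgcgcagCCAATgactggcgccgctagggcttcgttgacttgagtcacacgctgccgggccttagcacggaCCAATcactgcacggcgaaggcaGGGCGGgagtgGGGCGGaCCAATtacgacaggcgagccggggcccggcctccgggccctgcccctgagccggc
Cyp51, chr5:4104698-4104877, minus strand: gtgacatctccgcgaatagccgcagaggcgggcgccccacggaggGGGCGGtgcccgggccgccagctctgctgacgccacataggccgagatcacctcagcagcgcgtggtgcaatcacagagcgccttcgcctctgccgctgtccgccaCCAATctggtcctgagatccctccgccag
Fasn, chr11:120824548-120824727, minus strand: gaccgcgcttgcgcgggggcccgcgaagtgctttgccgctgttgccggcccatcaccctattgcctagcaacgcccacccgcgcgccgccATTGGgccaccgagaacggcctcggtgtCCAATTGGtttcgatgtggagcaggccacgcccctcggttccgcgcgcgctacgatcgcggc
Mvk, chr5:114444089-114444268, plus strand: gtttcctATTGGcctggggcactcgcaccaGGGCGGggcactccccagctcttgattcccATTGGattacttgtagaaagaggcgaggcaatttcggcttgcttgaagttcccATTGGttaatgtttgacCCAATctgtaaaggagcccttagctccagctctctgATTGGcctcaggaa
Ebp, chrX:8193513-8193692, minus strand: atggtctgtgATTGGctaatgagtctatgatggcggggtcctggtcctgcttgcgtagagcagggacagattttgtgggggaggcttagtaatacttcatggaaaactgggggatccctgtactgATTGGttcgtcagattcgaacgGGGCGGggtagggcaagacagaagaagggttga
Of CCAAT matches in the stretch shown, Hmgcs1 holds 2, Msmo1 3, Cyp51 1 and Fasn 3, and Mvk holds 5 and Ebp 2. Over all genes with a window, CCAAT was found in 15 of 17 that passed the test and 6 of 8 that did not.

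Some arrays stood apart before any comparison of groups. Cx3cr1, the fractalkine receptor and a defining marker of microglia, read 10.10 and 10.64 in KO-labelled samples 2 and 1 and 10.95 in control 1, against 11.44 to 11.87 on the other 7 arrays. The mean of 19 microglia markers was lowest on the same 3 arrays, at 9.26 on KO-labelled array 2 and 10.43 or above on each of those 7, and there the mean of 20 astrocyte markers was highest (10.25 to 10.68, against 9.49 to 9.91). These and the other list means were taken over the markers that passed the filter on dim probe sets (20 of 20 for astrocytes and 19 of 20 for microglia). A mean above the filter's level of 5.32 was thus largely fixed in advance. List means are not compared between lists. The other list means ran from 6.32 to 6.68 for oligodendrocytes (9 of 12 markers), 5.97 to 6.26 for neurons (9 of 10) and 6.32 to 6.79 for endothelium (7 of 8). For pericytes they ran from 7.10 to 7.79 and for choroid plexus from 8.18 to 9.55. Xist, read from the inactive X chromosome of females, was 10.60 and 10.98 on control arrays 2 and 3 and 4.98 to 5.23 elsewhere. Fmr1 itself was not lower on the KO-labelled arrays, at 8.22 ± 0.15 (SD, n = 5) against 8.04 ± 0.26 (SD, n = 5), a difference of 0.19 ± 0.13 (SE; limma adjusted p = 0.704). Which part of Fmr1 its probe set reads is not known here, so the labels are kept as given. In such bulk material fewer cells of a type and less RNA per cell cannot be told apart.

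The synthesis genes moved largely as a block from array to array. Of the 31, 26 had their 3 highest levels where Cx3cr1 was lowest, in control 1 and KO-labelled samples 1 and 2, a pattern seen in 10.0% of all genes. KO-labelled array 2 held the highest level for 22 of the 31 and control array 1 for 6. The lowest level fell on KO-labelled array 5 for 11 genes, on control arrays 2 and 5 for 9 each, and on control array 3 for 2. The median range of a gene over the 10 arrays was 1.17 log2 units, and over the 7 arrays other than those 3 it was 0.57. The 5 exceptions were Mvk, Ebp, Scap, Insig2 and Acly.

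**Figure D1:**
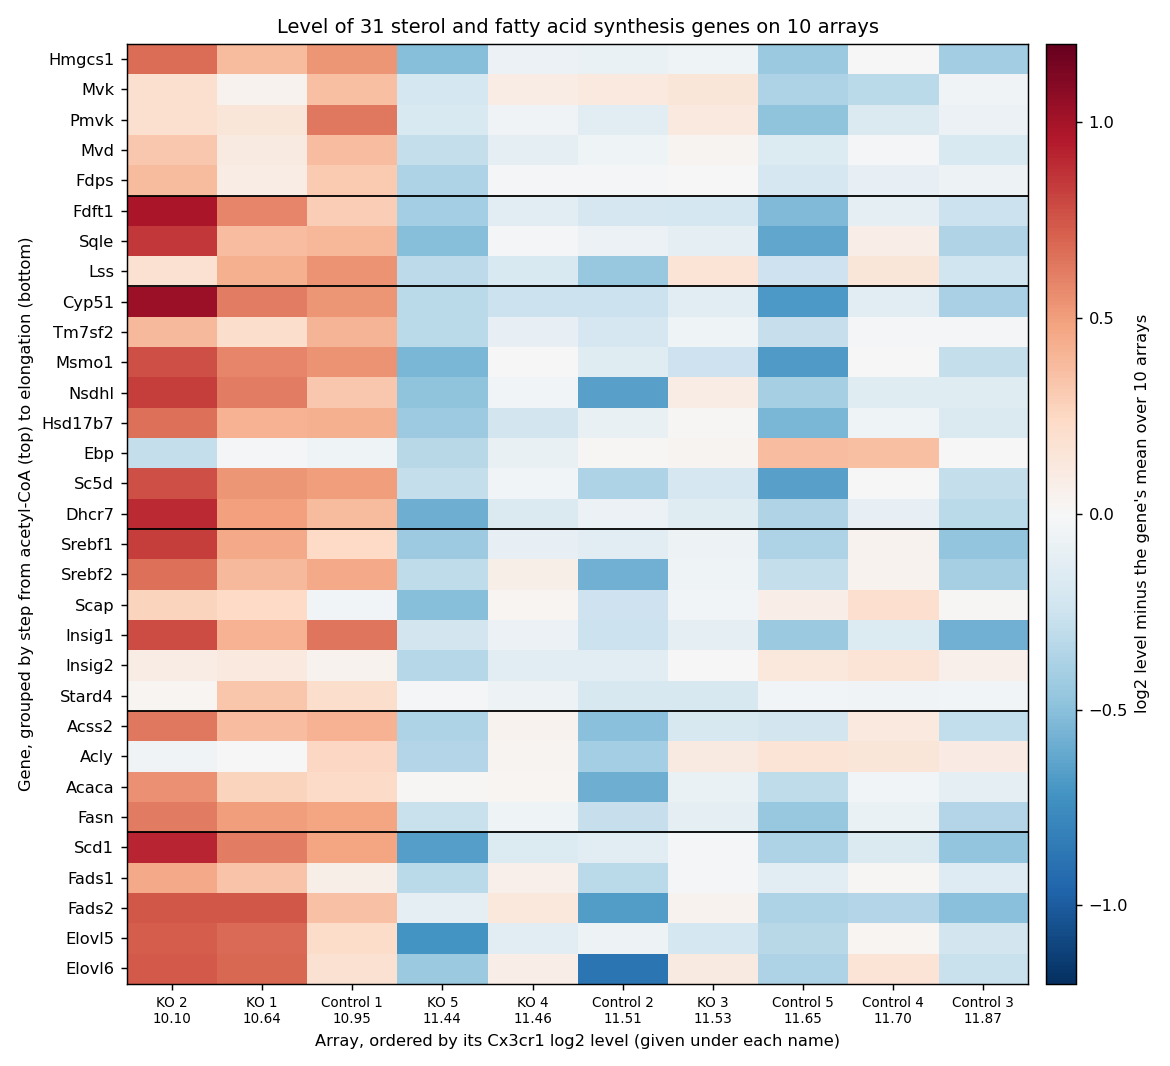
Heat map of 31 genes (rows, grouped by step) on 10 arrays (columns, ordered by Cx3cr1 level, with KO 1 to KO 5 the KO-labelled arrays). Colour gives the log2 level minus the gene's mean over the arrays; the 3 arrays on the left, at Cx3cr1 levels of 10.10, 10.64 and 10.95, are red for most rows, while Ebp is white or blue there.

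The study's comparison was control against Fmr1 KO, and differences are given as the KO-labelled minus the control mean. No synthesis gene passed it: 0 of 31 had an adjusted p under 0.05, and 0 of 17712 genes did (0% called; limma, Benjamini-Hochberg adjusted over all genes, smallest adjusted p among the 31 of 0.654). Of the 31, 27 had a higher mean on the KO-labelled arrays, where 46.8% of all genes did, with a median difference of 0.19 against -0.01 over all genes. At an unadjusted p under 0.05 in limma there were 2 of the 31, Fads2 on the higher and Ebp on the lower side, with 7.53% of all genes. The groups overlapped for all 31, where 0.965% of all genes had groups that did not. The median depended on single arrays. Leaving out KO-labelled array 2 gave 0.06, KO-labelled array 1 0.11 and control array 5 0.11. Leaving out control array 1 gave 0.32, with 8 of the 31 at an unadjusted p under 0.05 on the higher side, where 6.61% of all genes were. Leaving out KO-labelled array 5 gave 0.34, with 4 of the 31, where 6.38% of all genes were. It was 0.12 without the Xist-high controls, and 0.03 over the 7 arrays left after taking out the 3 with the least Cx3cr1. The marker lists moved beside it: all 20 astrocyte markers had a higher mean on the KO-labelled arrays, with a median of 0.43, and all 19 microglia markers a lower one, with a median of -0.55. Their part in the result was not tested.

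**Figure D2:**
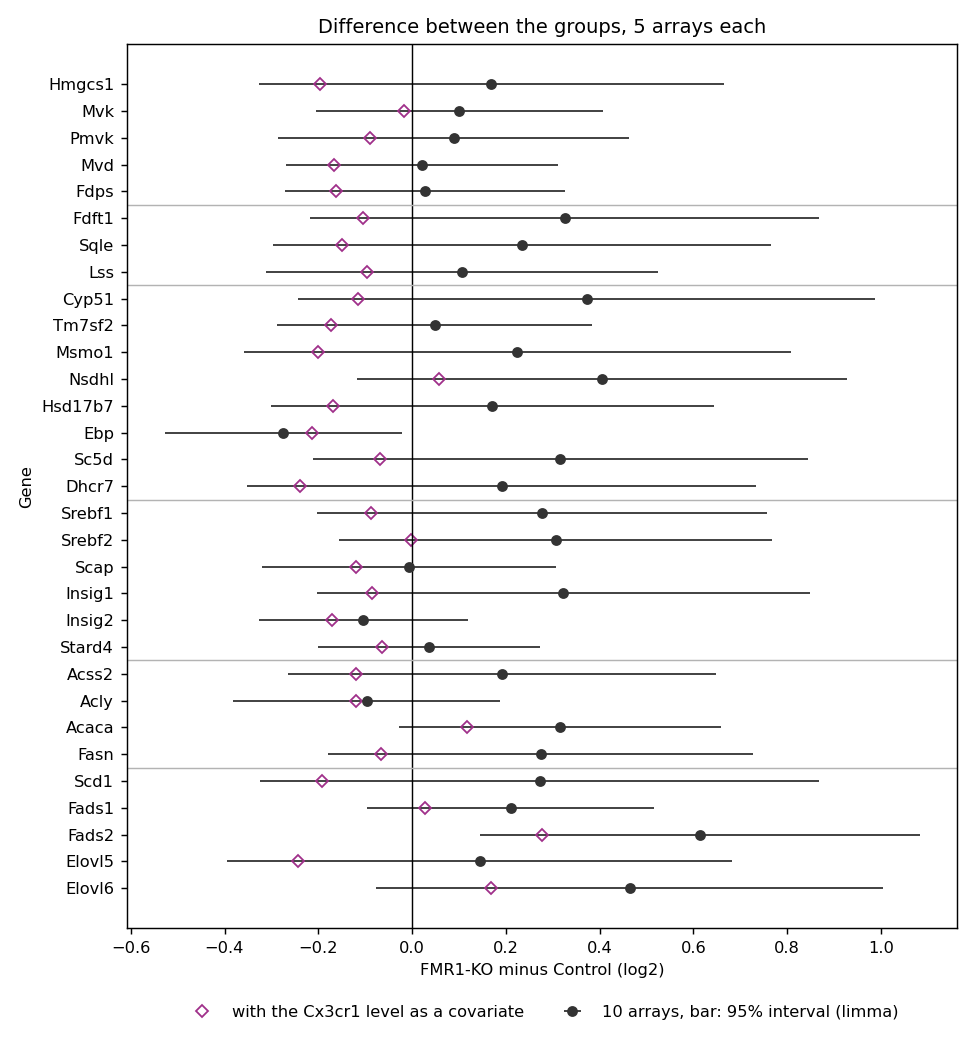
Difference between the group means in log2 units for each of 31 genes, 5 arrays per group. Black points are the plain comparison with its 95% interval (limma), and open diamonds the difference with the Cx3cr1 level as a covariate; 27 black points lie above 0, and 26 diamonds lie below it.

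Of the mevalonate arm, from acetyl-CoA units to farnesyl diphosphate, 5 enzymes were measured, with a median difference of 0.09. Hmgcs1, the synthase that makes HMG-CoA, read 9.95, 9.34, 9.01, 9.42 and 8.98 on the 5 control arrays and 9.80, 10.09, 9.37, 9.35 and 8.92 on the KO-labelled ones, each in the order of their numbers. The high values were control array 1 and KO-labelled arrays 1 and 2, and the difference was 0.17 ± 0.23 (SE). The kinases Mvk and Pmvk differed by 0.10 ± 0.14 and 0.09 ± 0.17, the decarboxylase Mvd by 0.02 ± 0.13 and farnesyl diphosphate synthase, Fdps, by 0.03 ± 0.14. For Hmgcs1 the 95% interval ran from -0.33 to 0.66, so these values do not show that the groups were alike.

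Squalene is made, oxidised and closed to lanosterol by 3 enzymes. Fdft1, squalene synthase, read 9.38, 8.89, 8.83, 8.98 and 8.56 on the 5 control arrays and 9.68, 10.06, 8.88, 8.95 and 8.68 on the KO-labelled ones, each in the order of their numbers. KO-labelled arrays 1 and 2 were above every control, while the other 3 KO-labelled arrays lay within the control range; the difference was 0.33 ± 0.25 (SE). Sqle, the squalene epoxidase, differed by 0.23 ± 0.24, and Lss, which closes the ring, by 0.11 ± 0.19. Without control arrays 2 and 3 the Lss difference was -0.09.

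The trimming of lanosterol to cholesterol held the gene with the widest range. Cyp51, the lanosterol demethylase, read 8.34, 7.55, 7.42, 7.68 and 7.12 on the 5 control arrays and 8.43, 8.84, 7.67, 7.55 and 7.49 on the KO-labelled ones, each in the order of their numbers. Its range of 1.72 was the largest among the 31, and its difference was 0.37 ± 0.28 (SE). Nsdhl, an X-linked sterol dehydrogenase, differed by 0.41 ± 0.24 (0.28 without the Xist-high controls), Sc5d by 0.32 ± 0.24, Msmo1 by 0.22 ± 0.27, Dhcr7, the last reductase of the route, by 0.19 ± 0.25, Hsd17b7 by 0.17 ± 0.22 and the reductase Tm7sf2 by 0.05 ± 0.15. Ebp, the X-linked isomerase between them, read 7.38, 7.44, 7.42, 7.79 and 7.80 on the 5 control arrays and 7.42, 7.14, 7.46, 7.34 and 7.10 on the KO-labelled ones, each in the order of their numbers. It was highest on control arrays 4 and 5, with the other arrays of both groups between 7.10 and 7.46. Its difference of -0.28 ± 0.12 (SE) had an unadjusted p of 0.0353 and an adjusted p of 0.654 in limma, with all 5 KO-labelled arrays below the control mean of 7.57. It was -0.36 without control arrays 2 and 3 and -0.31 over the 7 arrays. Leaving out control array 4 gave -0.22 and control array 5 -0.22, each with an unadjusted p no longer under 0.05 in limma. The same loss came without KO-labelled array 2 or 5, with array medians set equal, and with a block for the replicate number.

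Among the regulators the sensors differed from one another in how far they varied. Insig1, itself an SREBP target that holds SCAP back, read 10.02, 9.12, 8.80, 9.21 and 8.93 on the 5 control arrays and 9.79, 10.16, 9.27, 9.30 and 9.16 on the KO-labelled ones, each in the order of their numbers. Insig2, its paralog, read 7.13, 6.95, 7.14, 7.25 and 7.21 on the 5 control arrays and 7.21, 7.17, 7.09, 6.96 and 6.75 on the KO-labelled ones, each in the order of their numbers. Insig1 spanned 1.37 units and was highest on the same 3 arrays as the enzymes, whereas Insig2 spanned 0.51 and was highest on control array 4. The differences were 0.32 ± 0.24 (SE) for Insig1 and -0.10 ± 0.10 for Insig2. The transcription factor genes Srebf1 and Srebf2 differed by 0.28 ± 0.22 and 0.31 ± 0.21, their escort Scap by -0.01 ± 0.14, and Stard4, which carries cholesterol between membranes, by 0.04 ± 0.11. Stard4 was dim, reading 5.83 to 6.36 over the 10 arrays, and a filter at the median left it out. The dimmer probe set of Scap gave -0.01 as well.

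Fatty acid synthesis starts from cytosolic acetyl-CoA. Acly, which cuts citrate to acetyl-CoA, read 9.40, 8.75, 9.25, 9.30 and 9.31 on the 5 control arrays and 9.16, 9.11, 9.26, 9.18 and 8.80 on the KO-labelled ones, each in the order of their numbers. It was lowest on control array 2 and KO-labelled array 5 and highest on control array 1, KO-labelled arrays 1 and 2 lay in the middle of its range, and its difference was -0.10 ± 0.13 (SE). Acss2, which makes acetyl-CoA from acetate, differed by 0.19 ± 0.21, acetyl-CoA carboxylase, Acaca, by 0.32 ± 0.16 and fatty acid synthase, Fasn, by 0.27 ± 0.21. Acaca was lowest on control array 2, at 7.44, and its difference was 0.19 without control arrays 2 and 3.

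Desaturation and elongation held the gene with the smallest p. Fads2, the desaturase that opens the route to long polyunsaturated fatty acids, read 10.71, 9.69, 9.86, 10.01 and 9.99 on the 5 control arrays and 11.10, 11.11, 10.40, 10.49 and 10.25 on the KO-labelled ones, each in the order of their numbers. Every KO-labelled array read higher than control arrays 2 to 5, and control array 1 overlapped with the KO-labelled group. The means were 10.67 ± 0.41 (SD, n = 5) and 10.05 ± 0.39 (SD, n = 5), a difference of 0.61 ± 0.22 (SE; 95% interval 0.15 to 1.08), higher than the control mean in 5 of 5 arrays, with an unadjusted p of 0.0145 and an adjusted p of 0.654 in limma. It was 0.43 ± 0.25 (SE) without control arrays 2 and 3, with an unadjusted p no longer under 0.05 in limma. Over the 7 arrays it was 0.49 ± 0.12. Elovl6 differed by 0.46 ± 0.25, Scd1, the stearoyl desaturase, by 0.27 ± 0.27, Fads1 by 0.21 ± 0.14 and Elovl5 by 0.14 ± 0.25. The Elovl6 difference was 0.24 without control arrays 2 and 3, and its lowest level, 7.58, was on control array 2.

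The relation to the microglial signal was fitted for every gene as a slope: the change in its log2 level for each log2 unit of Cx3cr1, with the group as a further term. Of the 31 genes 30 had a negative slope, where 51.7% of all 17711 genes tested did, and 22 passed the test with a negative slope, where 10.6% of all genes did (limma, adjusted p under 0.05). None passed with a positive slope, where 7.36% of all genes did. The median slope was -0.62 against -0.01 over all genes. The 20 astrocyte markers all passed with negative slopes, from -0.93 to -0.42 with a median of -0.67, and the 18 microglia markers other than Cx3cr1 all passed with positive ones, with a median of 0.96. The part of cell makeup in the slopes of the synthesis genes was not tested.

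**Figure D3:**
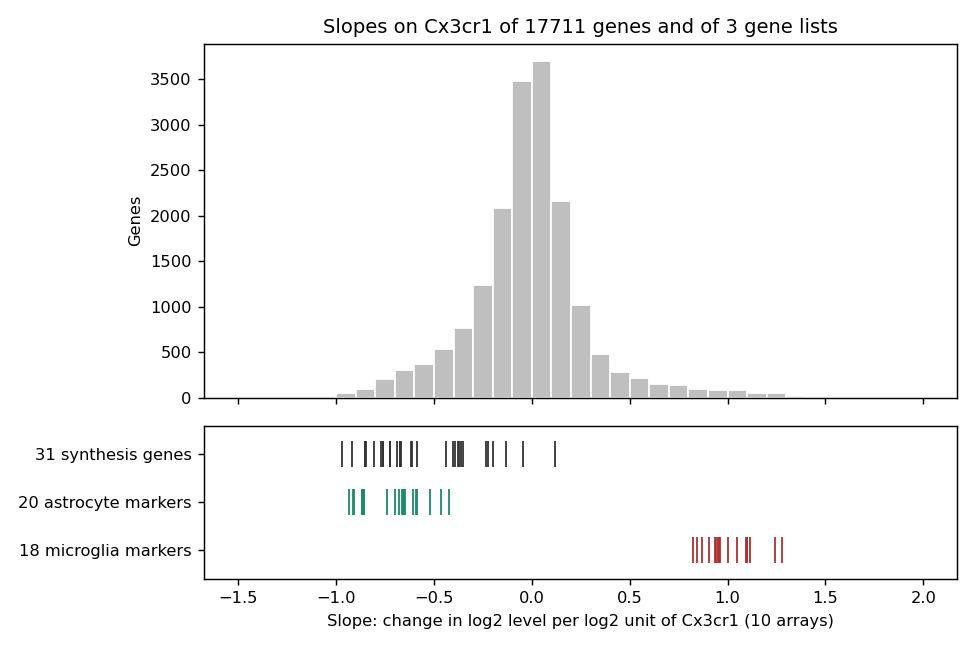
Histogram of the slopes of 17711 genes on Cx3cr1 over 10 arrays, in log2 units per log2 unit, with a tick for each gene of 3 lists below it. The synthesis genes lie from -0.97 to 0.12, the astrocyte markers from -0.93 to -0.42 and the microglia markers from 0.82 to 1.28.

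By step, the median slope was steepest for the squalene and late sterol enzymes (-0.76 and -0.73) and shallowest for the mevalonate enzymes (-0.37), a difference between steps that was not tested. Of the lanosterol to cholesterol enzymes 7 of 8 passed, all but Ebp. Cyp51 had the steepest slope of all 31, -0.97 ± 0.13 (SE; limma adjusted p = 1.33e-04), followed within the step by Dhcr7 at -0.85 ± 0.11 and Msmo1 at -0.85 ± 0.15. Dhcr7 read 8.93, 8.48, 8.23, 8.46 and 8.19 on the 5 control arrays and 9.04, 9.45, 8.41, 8.38 and 7.97 on the KO-labelled ones, each in the order of their numbers. Its lowest level was on KO-labelled array 5, so that the KO-labelled group held both ends of its range. Sc5d, Nsdhl and Hsd17b7 had slopes of -0.76 ± 0.14, -0.69 ± 0.16 and -0.67 ± 0.13, and Tm7sf2 -0.44 ± 0.11. Ebp had a slope of 0.12 ± 0.12 (SE; adjusted p = 0.594), its 95% interval running from -0.14 to 0.38, which lies above those of Cyp51, Dhcr7 and Msmo1.

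Of the squalene enzymes Fdft1 and Sqle passed, at -0.85 ± 0.11 (SE; limma adjusted p = 1.65e-04) and -0.76 ± 0.15, and Lss had -0.40 ± 0.17 (adjusted p = 0.118). Of the mevalonate enzymes 3 of 5 passed: Hmgcs1 at -0.72 ± 0.13, Fdps at -0.38 ± 0.10 and Mvd at -0.37 ± 0.10. Pmvk and Mvk had -0.35 ± 0.15 and -0.24 ± 0.13 and did not pass. For Mvk the level was 7.52 on control array 1, but 7.20 on KO-labelled array 1, below control array 2 and KO-labelled arrays 3 and 4.

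Among the regulators 3 of 6 passed: Insig1 at -0.81 ± 0.12 (SE; limma adjusted p = 3.35e-04), Srebf1 at -0.72 ± 0.12 and Srebf2 at -0.61 ± 0.14. Srebf1, the SREBP gene most tied to fatty acids, read 8.71, 8.34, 8.00, 8.52 and 8.11 on the 5 control arrays and 8.92, 9.31, 8.41, 8.38 and 8.04 on the KO-labelled ones, each in the order of their numbers. It was above 8.52 only in the 3 samples of least Cx3cr1. Scap, Stard4 and Insig2 had -0.23 ± 0.14, -0.20 ± 0.11 and -0.13 ± 0.11. Insig1 and Insig2 had 95% intervals of -1.07 to -0.55 and -0.36 to 0.09, which do not overlap; the difference between the 2 slopes was not tested.

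In fatty acid synthesis Fasn, Acss2 and Acaca passed, with slopes of -0.67 ± 0.12, -0.62 ± 0.14 and -0.39 ± 0.13 (SE). Fasn read 10.12, 9.37, 9.29, 9.57 and 9.19 on the 5 control arrays and 10.14, 10.27, 9.52, 9.59 and 9.38 on the KO-labelled ones, each in the order of their numbers. Its 3 highest levels, from 10.12 up, stood clear of the other 7, which ended at 9.59. Acly had -0.05 ± 0.14 (limma adjusted p = 0.889). Acaca passed narrowly, at an adjusted p of 0.044, and no longer did so in 7 of the 10 fits that leave out 1 array, that is, without control array 1 or 5 or any KO-labelled array. Of the fatty acid tailoring enzymes Scd1 (-0.92 ± 0.13; adjusted p = 2.60e-04), Elovl5 (-0.77 ± 0.15), Fads2 (-0.67 ± 0.13) and Fads1 (-0.36 ± 0.11) passed, and Elovl6 had -0.59 ± 0.20 (adjusted p = 0.0556). Scd1 read 8.66, 8.06, 7.71, 8.01 and 7.81 on the 5 control arrays and 8.80, 9.10, 8.16, 8.02 and 7.52 on the KO-labelled ones, each in the order of their numbers. As for Dhcr7, both its highest and its lowest level were KO-labelled. Elovl6 passed without control array 2, at -0.60 (adjusted p = 0.0135), and without control array 4. Fads1 did not pass without control array 1 or any of KO-labelled arrays 1, 2, 3 and 5.

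**Figure D4:**
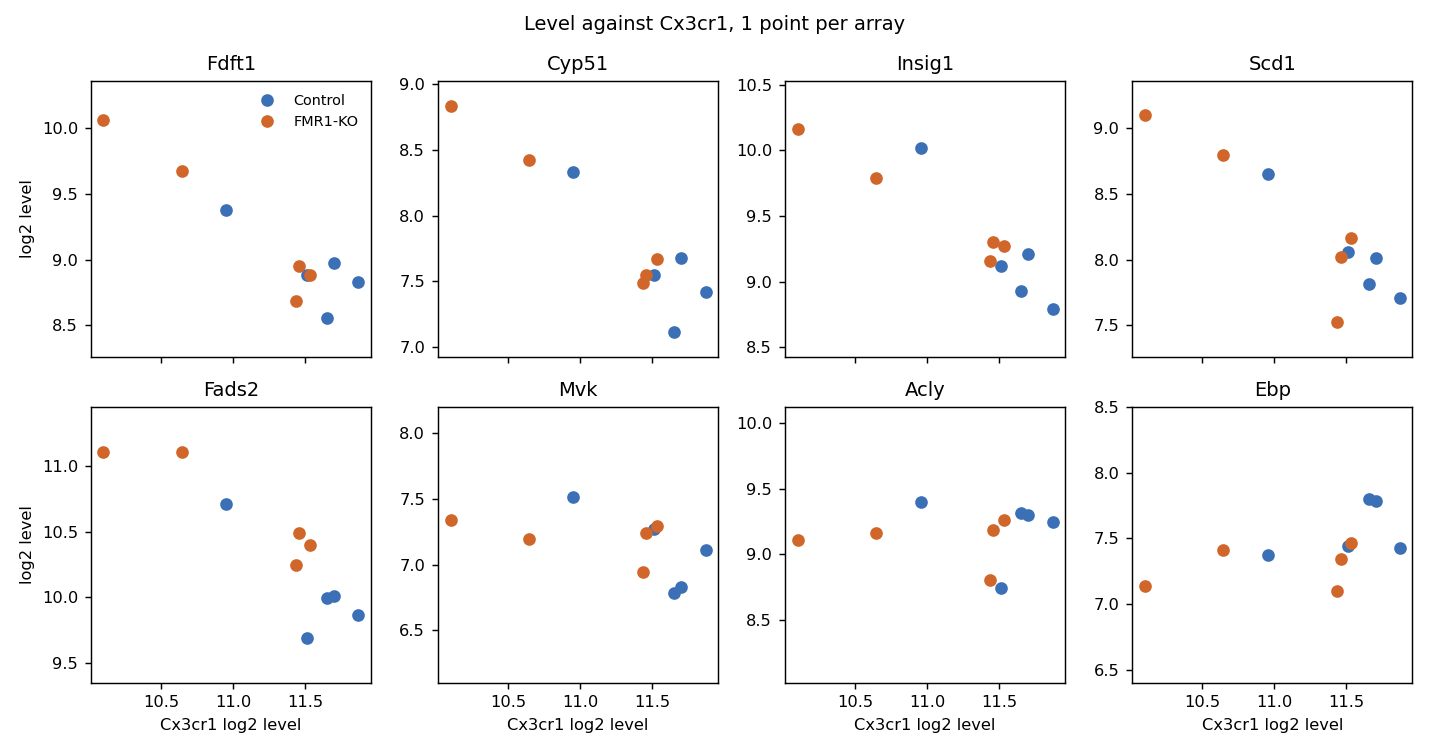
Log2 level of 8 genes (vertical, each panel spanning the same number of log2 units) against the log2 level of Cx3cr1 (horizontal), with 1 point per array, blue for control and orange for KO-labelled. In Fdft1, Cyp51, Insig1, Scd1 and Fads2 the 3 arrays at Cx3cr1 levels of 10.10 to 10.95 lie above the cluster of 7 at 11.44 to 11.87, while Acly and Ebp show no such step.

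These slopes rest on the 3 arrays with the least Cx3cr1. Over the other 7 arrays Cx3cr1 spanned 0.43 log2 units in place of 1.77, and 0 of the 31 genes passed and 0 genes did in all (limma; at an unadjusted p under 0.05, 0 of the 31 had a negative slope, with 2.81% of all genes, and 2 a positive one, with 3.54%). There the median slope of the 31 was 0.28 (0.07 over all genes), with 22 positive and 9 negative (8154 of all 17711 genes negative). The astrocyte markers turned alike, to a median of 0.32 with 18 of 20 positive. The microglia markers other than Cx3cr1 did not turn, with a median of 0.62 and 1 of 18 negative. Without KO-labelled arrays 1 and 2, the 2 farthest from the median Cx3cr1 level, the median slope was -0.65 (0.01 over all genes) and 28 of 31 were negative. In that fit 1 passed, Insig1 at -1.27 (limma adjusted p = 0.0133), where 0.277% of all genes passed with a negative slope. Without control array 1 alone 17 passed (8.78% of all genes passed with a negative slope), and the calls of Mvd, Fdps, Tm7sf2, Acaca and Fads1 were lost. Without KO-labelled array 2 alone 14 passed (5.41% of all genes passed with a negative slope), and the calls of Nsdhl, Srebf2 and Acss2 were lost as well. Fitted in each group apart, which was chosen after the data were seen, 28 slopes were negative among controls and 30 among KO-labelled arrays, with medians of -0.67 and -0.60. The share of all genes with a negative slope was not taken for these fits. Among controls only array 1 was low in Cx3cr1 (10.95, against 11.51 to 11.87), and the low KO-labelled arrays were 1 and 2. The fits by group thus rest on the same 3 arrays and are no separate evidence of a slope. A slope that differs between the groups was called for 0 of the 31 and 0 of all genes (0% called; limma), and at an unadjusted p under 0.05 for 2 of the 31, Insig1 and Pmvk (6.04% of all genes).

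**Figure D5:**
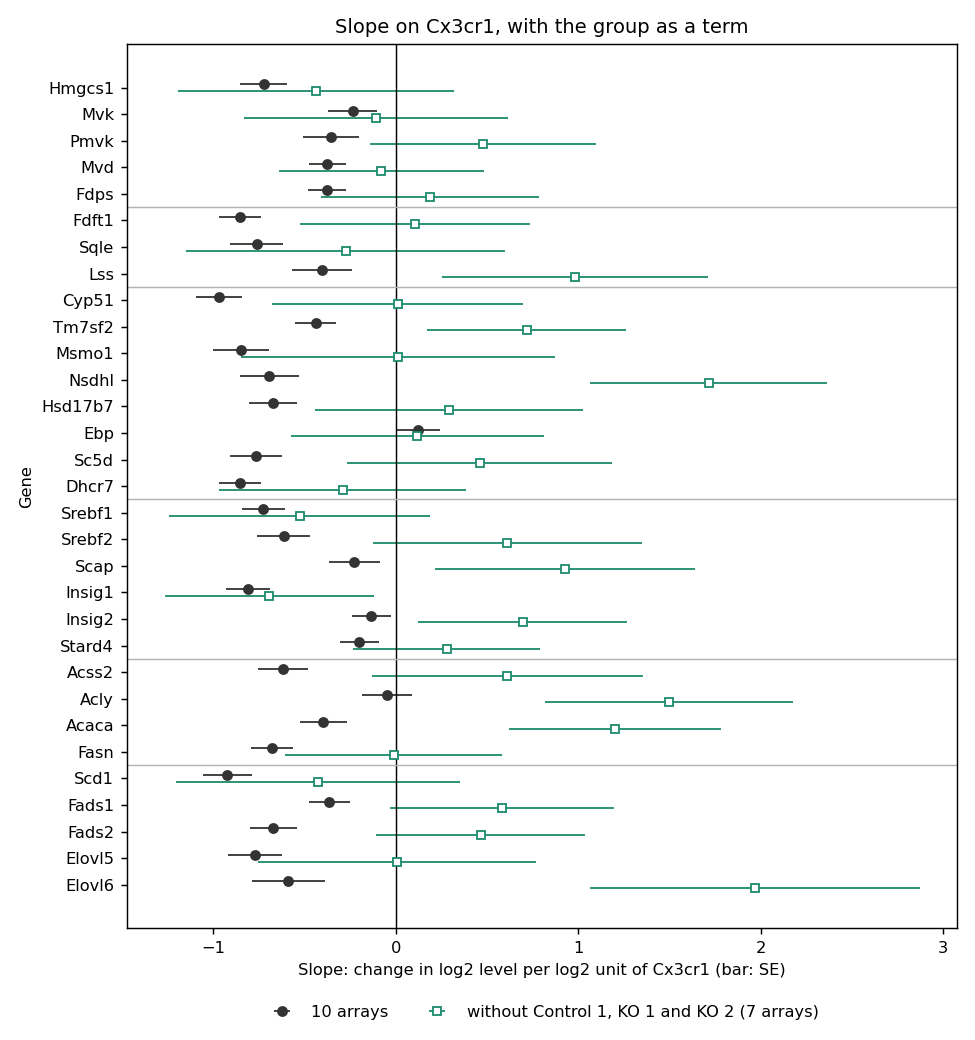
Slope on Cx3cr1 of each of 31 genes with its SE, in log2 units per log2 unit, over 10 arrays (filled) and over the 7 arrays left when control 1 and KO-labelled samples 1 and 2 are taken out (open squares). The filled points lie at or below 0 except Ebp, and 22 of the open squares lie above 0 with wide bars.

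With Cx3cr1 in the fit the group difference turned for most of the list. Cx3cr1 was lower on the KO-labelled arrays, at 11.03 ± 0.64 (SD, n = 5) against 11.54 ± 0.35 (SD, n = 5), a difference of -0.50 ± 0.27 (SE; limma adjusted p = 0.671). At equal Cx3cr1 level 26 of the 31 genes had a lower mean on the KO-labelled arrays, where 53.0% of all genes did, with a median of -0.12, and 0 passed (0% of all genes called; 5.09% at an unadjusted p under 0.05, and 0 of the 31). The 5 with a higher mean were Fads2, Elovl6, Acaca, Nsdhl and Fads1. Fads2 was the highest, at 0.28 ± 0.14 (SE; unadjusted p = 0.0613, adjusted p = 0.994), and Elovl5 the lowest, at -0.24 ± 0.15. Over the 7 arrays the median was 0.09 instead, with 22 higher. At an unadjusted p under 0.05 in limma, 4 of the 31 were higher there and 0 lower. Of all 17711 genes, 750 were higher and 647 lower at that level.

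The mean of the astrocyte markers was also tried as the covariate, after the data were seen. The difference was then negative for 28 of 31 genes, where 53.6% of all genes were, with a median of -0.17, and 0 of 31 and 0 of 17692 genes passed (0% called; limma). At an unadjusted p under 0.05, Elovl5 (-0.28 ± 0.12, SE), Msmo1 (-0.25 ± 0.12) and Tm7sf2 (-0.21 ± 0.09) were lower, with 4.14% of all genes, and Fads2 (0.24 ± 0.10) was higher, with 1.96% of all genes. Thus Fads2, Acaca and Elovl6 kept a positive sign with no covariate and with either. Ebp (-0.25 ± 0.13 with the astrocyte markers), Acly, Insig2 and Scap kept a negative one.

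Other genes around the pathway were taken by role, and their counts stand against the 10.6% of all genes that passed with a negative and the 7.36% with a positive slope. For cleavage of SREBP and sterol-regulated degradation, 6 of 8 listed genes were measured; 1 passed with a positive slope, Erlin1, at 0.33 ± 0.10 (SE; limma adjusted p = 0.0354), and 0 with a negative one. Erlin2, its partner in the endoplasmic reticulum, had 0.24 ± 0.11 and did not pass. For the isoprenoid branches beside sterols, 10 of 11 were measured and 0 passed in either direction (at an unadjusted p under 0.05, 1 negative and 0 positive, where 16.7% and 11.8% of all genes were), with Fnta, a prenyl transferase subunit, at -0.28 ± 0.13 and Coq2 of ubiquinone synthesis at 0.24 ± 0.12.

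For the remaining genes of fatty acid synthesis, elongation and activation, 27 of 29 were measured, and 13 passed with a negative slope (10.6% of all genes) and 3 with a positive one (7.36% of all genes), the last a share near that of all genes. Thrsp, which is tied to fat synthesis in liver and fat, had -0.63 ± 0.10 (SE; limma adjusted p = 5.18e-04), and Mlxipl, the glucose-responsive transcription factor ChREBP, 0.82 ± 0.09 (adjusted p = 4.27e-05). For oxysterols, sterol esters and the sterol-sensing LXR receptors, 12 of 14 were measured, and 2 passed in each direction, a count near that over all genes (10.6% negative, 7.36% positive). Cyp7b1, an oxysterol hydroxylase, had -0.91 ± 0.12 (adjusted p = 1.26e-04), and Mylip, the LXR target that marks lipoprotein receptors for degradation, 1.29 ± 0.09 (adjusted p = 2.79e-06). Mylip read 8.09, 8.91 and 9.08 on the 3 arrays with the least Cx3cr1 and 9.77 to 10.11 on the other 7, opposite to Cyp7b1, at 7.79 to 8.90 against 7.20 to 7.64. Between the groups no gene of these 4 lists passed (limma adjusted p of 0.05 or above for each).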

How the data were processed

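RNA from 10 samples was read on Affymetrix arrays; per the labels' protocols it was amplified as cDNA with a whole-transcript kit, fragmented and labelled with biotin. The authors deposited log2 signal levels per probe set, a scale read from the values; how they were background-corrected and normalized is not given in the sources used here. Per the series' design text the groups were compared in GeneSpring 13.1.1. Of 33793 probe sets, 23521 have 1 symbol in the platform annotation, 1814 several and 8458 none. The brightest probe set per gene was kept, and genes whose mean lay under the probe sets' 25th percentile (5.32) were left out. limma 3.58.1 in R 4.3.3 (lmFit, eBayes, two-sided) gave group differences and, with the group as a term, slopes on Cx3cr1; Benjamini-Hochberg adjustment ran over all genes, with a threshold of 0.05. All 31 measured list genes are named; of each further list, the 2 with the smallest slope p. The fits were run on simulated data with noise drawn for each gene apart, unlike these arrays, where many genes moved together. The list, its members and the tests were chosen with earlier results of these data known. All 31 symbols matched by gene ID to RefSeq genes of GRCm38.p6, where the promoter sequences come from. The number of arrays limits the precision. Alternatives were other normalizations, filters, probe set rules, variance settings, array weights, other microglial measures, a block for the replicate number and leaving out arrays.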

Additional observations from a re-analysis of the deposited data

Results flagged for a closer look

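Of 64 groups of 5 arrays, 2 held an array that stood apart from the rest by Dixon's test at 95%, and chance alone gives about 1 in 20. Mvd, the mevalonate decarboxylase, read 7.73 on control array 1, with the next control at 7.33 and the lowest at 7.17. Acly, ATP citrate lyase, read 8.75 on control array 2, with the next control at 9.25 and the highest at 9.40.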

How the results depend on the processing

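The comparison of groups called 0 genes in all, and between 0 and 1 with 1 array left out; 1 gene, outside the 31, was called over the 7 arrays that remain without the 3 of least Cx3cr1. With Cx3cr1 as a covariate, leaving out 1 array gave 0 to 6 genes. For the slope, 3180 genes and 22 of the 31 were called; leaving out 1 array gave 1838 to 3598 genes and 14 to 23 of the 31, the lowest without KO-labelled array 2. Over the 7 arrays 0 genes and 0 of the 31 were called, and without the 2 arrays farthest from the median Cx3cr1 484 genes and 1 of the 31. Same-numbered arrays did not deviate together in every pair (r = 0.53, -0.015, 0.19, 0.0020 and 0.15). These values cannot tell whether same-numbered samples were handled together, and the main fits did not pair them. A replicate block gave 483 slope calls, 8 of them among the 31, and 0 calls between groups. With it the slope of Mvk turned to 0.055 and that of Ebp to -0.027. No control array correlated best with the KO-labelled array of its own number.

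Signs of single genes turned as follows, and the cause was not tested. The group difference turned with quantile normalization for Scap (0.0098) and with array weights for Stard4 (-0.022). Without control arrays 2 and 3 it was -0.049 for Mvd, -0.089 for Lss, -0.012 for Tm7sf2, -0.027 for Stard4 and -0.0085 for Acss2. Over the 7 arrays it was -0.018 for Mvd, -0.036 for Fdps, -0.027 for Tm7sf2, -0.0035 for Hsd17b7, -0.088 for Dhcr7, -0.013 for Stard4 and -0.20 for Elovl5. With 1 array left out it ran from -0.043 to 0.094 for Stard4, -0.056 to 0.12 for Mvd, -0.073 to 0.12 for Scap, -0.020 to 0.26 for Pmvk, -0.063 to 0.12 for Fdps, -0.042 to 0.16 for Tm7sf2, -0.019 to 0.34 for Elovl5 and -0.0087 to 0.36 for Dhcr7.

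The slope of Acly was 0.0074 with array weights, 0.0095 with no group term and -0.11 to 0.029 with 1 array left out. Without the 2 arrays farthest from the median Cx3cr1 it was 0.19 for Scap and 0.11 for Insig2. Over the 7 arrays it turned positive for 21 genes: Pmvk 0.48, Fdps 0.19, Fdft1 0.10, Lss 0.98, Cyp51 0.013, Tm7sf2 0.72, Msmo1 0.014, Nsdhl 1.72, Hsd17b7 0.29, Sc5d 0.46, Srebf2 0.61, Scap 0.93, Insig2 0.70, Stard4 0.28, Acss2 0.61, Acly 1.5, Acaca 1.2, Fads1 0.58, Fads2 0.47, Elovl5 0.0071 and Elovl6 1.97. Other normalizations, filters, probe set rules and variance settings left 20 to 23 of the 31 called and kept 29 or 30 slopes negative.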
